A study of Mus musculus with 9 samples.

Results

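The 10 genes described here encode the mitophagy receptors Bnip3, Bnip3l and Fundc1, the mitophagy kinase Pink1, and the general autophagy proteins Map1lc3a, Map1lc3b, Gabarapl1, Sqstm1, Ulk1 and Becn1. They were chosen by name and found by Ensembl identifier, and all 10 were among the 34866 genes in the deposited tables. Their expression was measured by sequencing of mRNA from primary mouse macrophages, phagocytic cells of innate immunity, in 9 libraries that form 3 groups of 3. Standard oxygen cells were cultured for 7 days in standard oxygen. Acute hypoxia cells were kept in standard oxygen and then moved to 1% oxygen for 3 hours, and chronic hypoxia cells spent 7 days in 1% oxygen. Every group was grown in alpha-MEM with fetal bovine serum plus a supplement of medium taken from L929 fibroblasts, which carries the growth factor macrophages need, and no genetic change is named in the labels. The labels call the replicates biological, but do not say whether they came from separate animals or cultures, so the p-values measure the spread between these samples.

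Mitophagy is the removal of mitochondria by autophagy, in which a double membrane closes around cargo and fuses with lysosomes. Bnip3 and Bnip3l sit in the outer mitochondrial membrane and bind the ATG8 proteins (LC3 and GABARAP) on the growing membrane; Bnip3 is a well known target of hypoxia-inducible factors (HIF) in many cell types. Pink1 starts a separate, ubiquitin-driven route in which receptors such as p62, the product of Sqstm1, link marked cargo to LC3, while Ulk1 and Becn1 act at the start of autophagosome formation. Transcript levels do not measure mitophagy, and p62 and LC3 are themselves degraded by autophagy as proteins.

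The values are TPM (transcripts per 1000000), a length-corrected share of each library, so levels of different genes can be compared and the sequencing depth is unknown. Between 10724 and 11208 genes had at least 1 TPM in a library. Each sample carries a code in its label (the codes are named X, Y and Z in this text, and the labels do not say what they stand for). The Z libraries deviated together, while the values could not settle how the X and Y libraries pair across groups. Replicate 1 of every group is code X. Code Y is standard replicate 3, acute replicate 2 and chronic replicate 2, and code Z is standard replicate 2, acute replicate 3 and chronic replicate 3. The Z libraries stood apart in single genes. The macrophage marker Mrc1 was at 0.247 to 0.697 TPM in them and at 2.09 TPM or more in the others. The osteoclast marker Ctsk was at 33.9 to 51.0 TPM in them and at no more than 11.9 TPM in the others. Other markers of these lists did not all follow. Adgre1 and Cd68 were also lowest in the Z library of every group, but Csf1r and Itgam were highest in it in standard oxygen and acute hypoxia. Acp5 was at 1.19, 1.56 and 1.44 TPM in the Z libraries and at up to 1.92 TPM elsewhere. Dcstamp was at 0.189, 1.67 and 0.0375 TPM in them and at up to 1.05 TPM elsewhere. Results are given without a block, with the code as a block, and, where it matters, without the Z libraries. All 7 macrophage markers were above 0 in every library, although Mrc1 was under 1 TPM in the Z libraries. Their summed TPM was 61024 to 69810 under standard oxygen, 55364 to 73266 under acute and 61140 to 67235 under chronic hypoxia. Nearly all of each sum was Lyz2 (52790 to 70400 TPM), so the sums do not show how the other macrophage markers changed. Of 23 markers of fibroblasts, dendritic cells, T cells, B cells, mast cells and erythroid cells, 5 were listed at 0 in all libraries and none was above 1.25 TPM.

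Averaged over the 9 libraries, Sqstm1 was the most abundant of the 10 transcripts at 609.6 TPM, followed by Bnip3 at 299.9 TPM, Bnip3l at 144.8 TPM and Map1lc3b at 102.1 TPM. Becn1 and Gabarapl1 lay near 85.6 TPM. Pink1 (32.3 TPM), Map1lc3a (29.4 TPM), Fundc1 (24.6 TPM) and Ulk1 (15.6 TPM) were lower. Sqstm1 was at percentile 97.9 and Ulk1 at percentile 48.5 of the 11065 genes with a mean of at least 1 TPM. All 10 genes passed the filter on low values in every comparison.

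**Figure D1:**
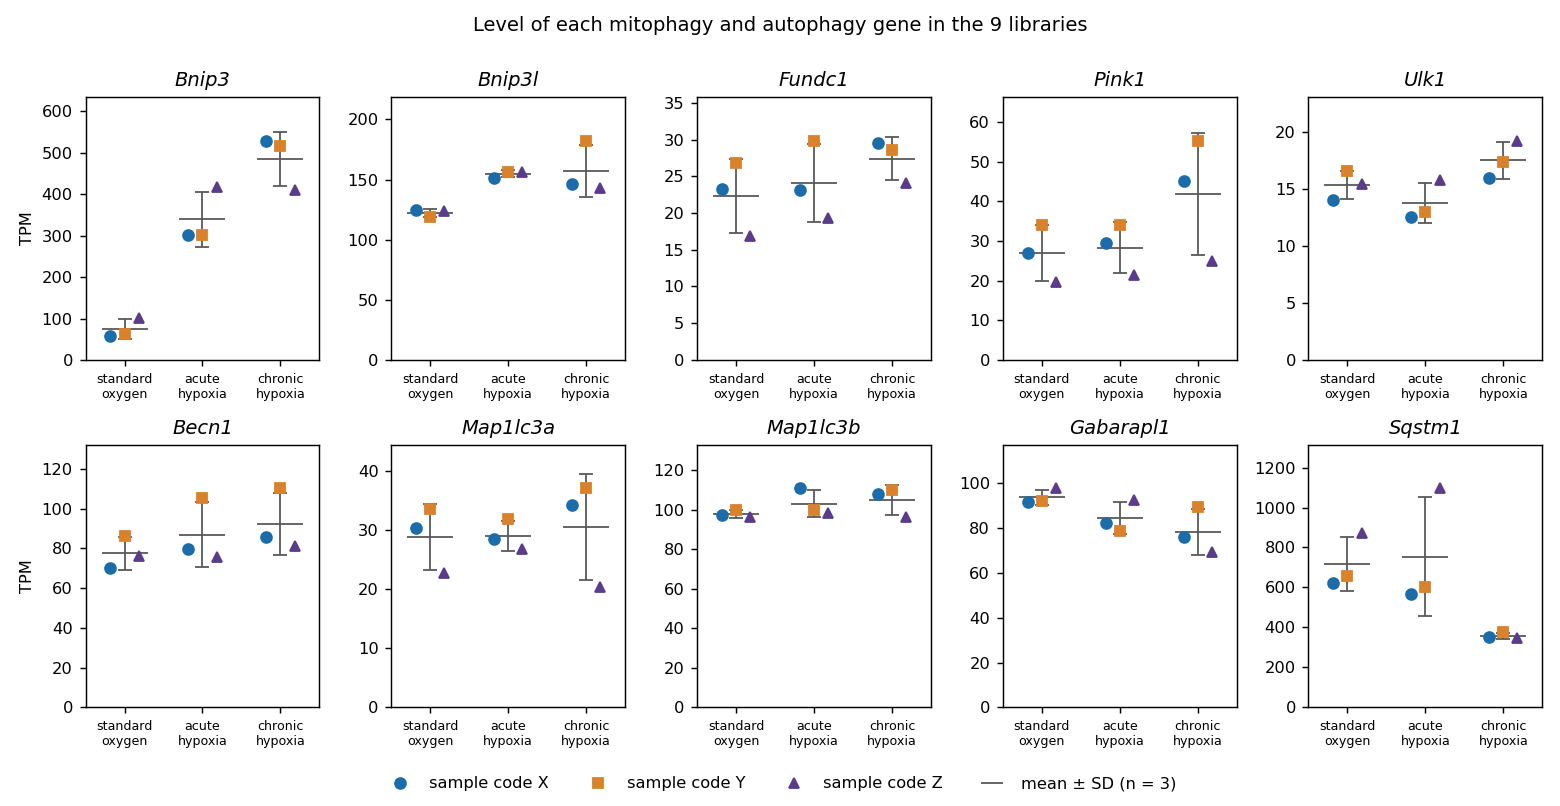
Level of each of the 10 genes in TPM (vertical axes, linear, from 0) in standard oxygen, acute hypoxia and chronic hypoxia; points are libraries marked by code X, Y or Z, and bars are the mean ± SD of 3 libraries. Bnip3 lies between 57.9 and 102 TPM under standard oxygen and between 411 and 529 TPM in chronic hypoxia, whereas Sqstm1 falls from between 625 and 871 TPM to between 346 and 376 TPM.

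Bnip3 (ENSMUSG00000078566, chr7:138890836-138909519, minus strand, GRCm38, a protein-coding gene) had the largest fold change of the 10 genes. In standard oxygen its level was 57.9 TPM in replicate 1, 102 TPM in replicate 2 and 62.6 TPM in replicate 3. After 3 hours in 1% oxygen the 3 libraries held 301, 303 and 417 TPM, and after 7 days they held 529, 516 and 411 TPM. Every hypoxic library was above every standard oxygen library, and the Z library was the highest of its group in standard oxygen and in acute hypoxia but the lowest in chronic hypoxia. The mean rose from 74.3 ± 24.4 TPM (SD, n = 3) to 340 ± 66.3 TPM under acute hypoxia, 4.58-fold, and to 485 ± 64.4 TPM in chronic hypoxia, 6.53-fold. In bulk RNA, a change in the number of cells of a type cannot be told apart from a change in RNA per cell.

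Differences were tested with limma on log2(TPM + 1), with p-values adjusted by the Benjamini-Hochberg method over all genes tested; an adjusted p under 0.05 counts as changed. For transcripts with low values this scale gives too small a fold. For chronic hypoxia against standard oxygen, the log2 difference of Bnip3 was 2.73 (SE 0.23), with a limma adjusted p of 0.0077 (no block) and 0.00921 (code block). Without a block the adjusted p was 0.0589 when standard replicate 3 was left out and 0.0654 when chronic replicate 2 was left out. For acute hypoxia the log2 difference was 2.21 (SE 0.24 without a block, 0.08 with the code block). The limma adjusted p of 0.0568 from the fit with no block missed the threshold. The acute rise passed the test with the code block (0.00814) and without the Z libraries (0.0014), and leaving out standard replicate 2 alone gave 0.0298. Leaving out any other single library gave a limma adjusted p of 0.0886 to 0.381. With the replicate number of the sample title as the block, the limma adjusted p was 0.431. Within codes, the acute difference was 2.36 in X, 2.25 in Y and 2.02 in Z on the log2 scale. The chronic difference was 3.17 in X, 3.02 in Y and 2.00 in Z.

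Chronic and acute hypoxia were not separated for Bnip3 when all libraries were used. The log2 difference, chronic against acute, was 0.52 (SE 0.17), with a limma adjusted p of 0.171 without and 0.103 with the code block. It was 0.81 in code X and 0.77 in code Y, and -0.02 in code Z, where both libraries lay between 411 and 417 TPM. Without the Z libraries the difference was 0.79 and the limma adjusted p was 0.00506, so this call depends on code Z.

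The sequence upstream of Bnip3 is shown because this gene had the largest fold change, and those of Pink1 and Sqstm1 because they were the other members called in chronic hypoxia with the code block. Each is the 250 bases before the gene's RefSeq start (GRCm38.p6), printed from 5′ to 3′ on the gene's strand: chr7:138909507-138909756 for Bnip3, chr4:138326297-138326546 for Pink1 and chr11:50210821-50211070 for Sqstm1, all on the minus strand. Capitals mark every match, on either strand, to ACGTG or GCGTG, the core letters bound by HIF, or to the palindrome CACGTG, which contains ACGTG on both strands and is also the core of the motif read by TFEB and related factors.
Bnip3: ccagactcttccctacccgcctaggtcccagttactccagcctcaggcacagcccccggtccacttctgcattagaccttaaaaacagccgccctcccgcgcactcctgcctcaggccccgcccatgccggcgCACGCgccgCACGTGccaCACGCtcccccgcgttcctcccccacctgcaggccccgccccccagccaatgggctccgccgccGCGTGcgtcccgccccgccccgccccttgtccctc
Pink1: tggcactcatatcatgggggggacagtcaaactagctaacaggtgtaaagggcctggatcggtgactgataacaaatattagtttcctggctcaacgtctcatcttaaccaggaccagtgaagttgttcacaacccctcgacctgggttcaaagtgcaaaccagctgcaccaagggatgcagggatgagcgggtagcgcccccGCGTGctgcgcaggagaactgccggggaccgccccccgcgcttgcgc
Sqstm1: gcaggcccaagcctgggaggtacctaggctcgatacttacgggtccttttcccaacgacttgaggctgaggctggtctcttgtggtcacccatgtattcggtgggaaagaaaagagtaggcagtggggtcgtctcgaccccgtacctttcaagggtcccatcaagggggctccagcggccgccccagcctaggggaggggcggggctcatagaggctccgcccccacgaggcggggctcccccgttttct
The Bnip3 window holds the palindrome CACGTG, whose first base is 108 bases before the start and which gives both of its matches to ACGTG, and 3 matches to GCGTG at 117, 99 and 35 bases before the start. Pink1 has 1 match to GCGTG and Sqstm1 has none of the 3 motifs. Of the other members in the table, Map1lc3b holds 5 matches to GCGTG and Ulk1 holds 1, and the windows of Fundc1 and Gabarapl1 hold none. Windows were listed for 7 of the 10 genes and not for Bnip3l, Map1lc3a and Becn1. Among 32851 windows of this length, 16.57% held ACGTG, 28.16% GCGTG and 6.02% CACGTG, so matches to ACGTG and GCGTG are common. A match is a description of the letters, not a measured binding site.

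Bnip3l (also called Nix; ENSMUSG00000022051, chr14:66985239-67008877, minus strand), the close relative of Bnip3 known for clearing mitochondria from maturing red cells, shifted much less. It held 125, 124 and 119 TPM in standard oxygen, 151, 156 and 157 TPM under acute hypoxia, and 147, 182 and 143 TPM in chronic hypoxia. Both hypoxic groups lay wholly above standard oxygen, and they overlapped with each other. The means were 122 ± 3.23, 155 ± 2.93 and 157 ± 21.5 TPM (SD, n = 3). The difference did not pass the test in either condition: the acute log2 difference was 0.34 (SE 0.08; limma adjusted p 0.272 without a block, 0.111 with the code block), and the chronic one was 0.35 (SE 0.12; limma adjusted p 0.15 and 0.075). With the code block and without the Z libraries, the chronic difference of Bnip3l was 0.42 and its limma adjusted p was 0.0178. With each library divided by its median ratio to the geometric mean of the 9 libraries (median-of-ratios rescaling), the chronic difference was 0.17 and its limma adjusted p was 0.549.

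The order of the pair differed between standard oxygen and hypoxia. Bnip3 stood at 0.465, 0.828 and 0.528 times the level of Bnip3l in the 3 standard oxygen libraries. The ratio was 1.99, 1.94 and 2.66 in acute hypoxia, and 3.61, 2.83 and 2.87 in chronic hypoxia. Bnip3l was the more abundant of the pair in every standard oxygen library, and Bnip3 was the more abundant in every hypoxic library.

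Fundc1 (ENSMUSG00000025040, chrX:17556564-17572325, minus strand), a receptor in the outer mitochondrial membrane whose binding to LC3 is set by phosphorylation in hypoxia, did not separate the groups. It held 23.3, 16.9 and 26.8 TPM in standard oxygen, 23.2, 29.8 and 19.3 TPM under acute hypoxia, and 29.6, 28.5 and 24.1 TPM in chronic hypoxia. The groups overlapped, and the Z library was the lowest in each of them. The chronic difference was positive within all 3 codes (0.33 in X, 0.09 in Y and 0.49 in Z on the log2 scale), with a mean of 0.30 and a limma adjusted p of 0.375 with no block and 0.103 with the code block. The rescaled chronic difference was 0.13 (limma adjusted p 0.813). For acute hypoxia the log2 difference was 0.11 (limma adjusted p 1 and 0.602).

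Pink1 (ENSMUSG00000028756, chr4:138313409-138326307, minus strand), the kinase that gathers on damaged mitochondria and phosphorylates ubiquitin, was higher in chronic hypoxia within each code. Its levels were 27.1, 19.8 and 34.0 TPM in standard oxygen, 29.4, 34.0 and 21.4 TPM under acute hypoxia, and 45.1, 55.2 and 25.0 TPM in chronic hypoxia. Code Z gave the lowest library in every group, so the groups overlapped: the chronic Z library was below the standard oxygen libraries of codes X and Y. The means were 27.0 ± 7.12, 28.3 ± 6.42 and 41.8 ± 15.4 TPM (SD, n = 3). Against standard oxygen, the chronic log2 difference was 0.72 in X, 0.68 in Y and 0.32 in Z.

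The call on Pink1 rested on comparing within codes. The mean chronic log2 difference was 0.57 (SE 0.32 without a block, 0.11 with it), and the limma adjusted p was 0.34 without a block and 0.0287 with the code block. Against acute hypoxia the log2 difference was 0.50, with a limma adjusted p of 0.408 with no block and 0.0453 with the code block. Both calls were lost when the block was combined with median-of-ratios rescaling (limma adjusted p 0.0721 and 0.118). Without the Z libraries and without a block, the differences were 0.70 and 0.64, with limma adjusted p of 0.0371 and 0.0361. The acute difference from standard oxygen was 0.07 (limma adjusted p 1 without a block and 0.693 with it).

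**Figure D2:**
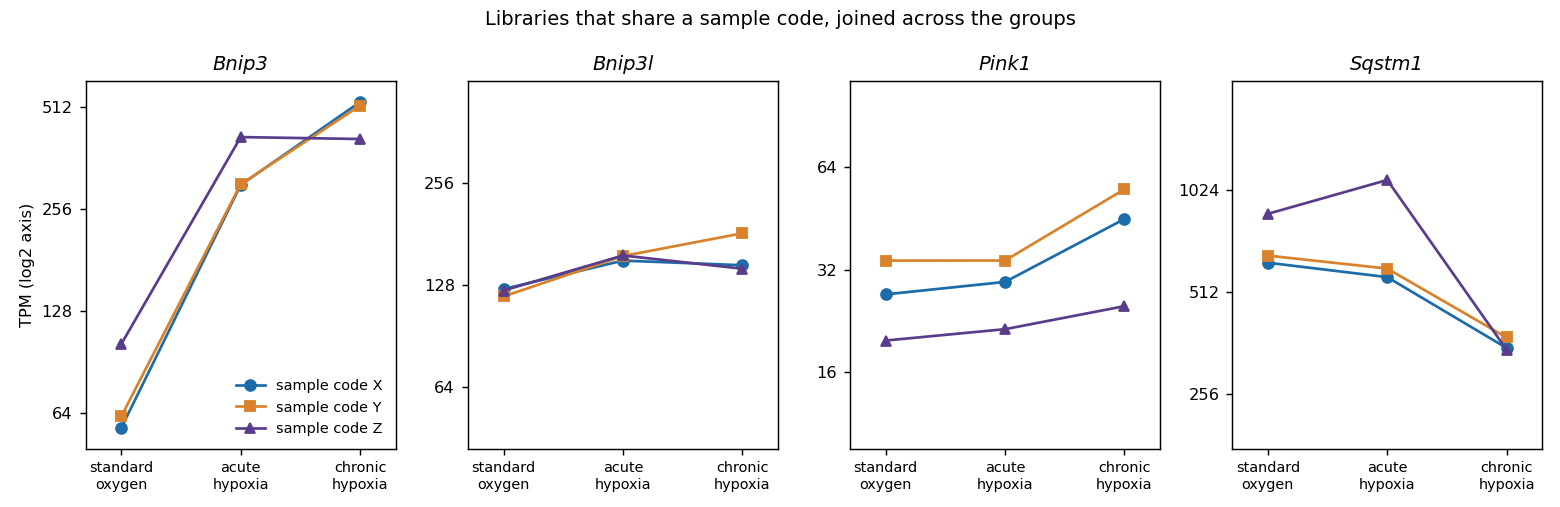
Levels of Bnip3, Bnip3l, Pink1 and Sqstm1 in TPM (vertical axes, log2 scale) in standard oxygen, acute hypoxia and chronic hypoxia, with lines joining the libraries of the same code. Bnip3 is above standard oxygen in both hypoxic groups in all 3 codes and Sqstm1 is lowest in chronic hypoxia in all 3 codes, while the Pink1 line of code Z runs below those of X and Y throughout.

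Among the ATG8 proteins, which coat the autophagosome membrane and hold its cargo receptors, no member passed the test in any comparison without a block or with the code block. Map1lc3b (LC3B; ENSMUSG00000031812, chr8:121590361-121598760, plus strand) held 97.3, 96.7 and 100.2 TPM in standard oxygen, 111, 100.1 and 98.5 TPM under acute hypoxia, and 108, 110 and 96.5 TPM in chronic hypoxia. These libraries overlapped, with log2 differences from standard oxygen of 0.07 (SE 0.09) in acute and 0.10 (SE 0.09) in chronic hypoxia; the latter was -0.08 after median-of-ratios rescaling. Map1lc3a (LC3A; ENSMUSG00000027602, chr2:155276297-155278073, plus strand) ranged from 20.3 to 37.0 TPM over the 9 libraries, and its highest and lowest libraries were both in chronic hypoxia. Its log2 differences were 0.02 (SE 0.16) and 0.05 (SE 0.25), and their sign also turned with rescaling. For both LC3 genes the Z library was the lowest of each group.

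Gabarapl1 (ENSMUSG00000030161, chr6:129533160-129542346, plus strand), of the GABARAP branch of the ATG8 family, had values below standard oxygen in chronic hypoxia. It held 91.7, 97.8 and 91.9 TPM in standard oxygen, 82.5, 78.7 and 92.7 TPM under acute hypoxia, and 76.1, 89.6 and 69.3 TPM in chronic hypoxia. All 3 chronic libraries were below all 3 standard oxygen libraries, and acute hypoxia overlapped both. The chronic log2 difference was -0.26 (SE 0.12), with a limma adjusted p of 0.243 with no block and 0.136 with the code block, and it was -0.27 in X, -0.04 in Y and -0.49 in Z. After median-of-ratios rescaling it was -0.44 (limma adjusted p 0.157 with no block and 0.0564 with the code block). It did not pass the test, nor did the acute log2 difference of -0.15 (limma adjusted p 0.913 and 0.39).

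Sqstm1 (p62; ENSMUSG00000015837, chr11:50199366-50210827, minus strand), the receptor that binds ubiquitin-marked cargo and LC3, was the member that fell in chronic hypoxia. It held 625, 871 and 656 TPM in standard oxygen, 567, 600 and 1095 TPM under acute hypoxia, and 350, 376 and 346 TPM in chronic hypoxia. Every chronic library was below every library of the other groups, and within each of those groups the Z library was the highest. The means were 717 ± 134, 754 ± 296 and 358 ± 16.3 TPM (SD, n = 3), so the chronic mean was 0.499 times the standard oxygen mean. For chronic hypoxia against standard oxygen the log2 difference was -0.99 (SE 0.15), with a limma adjusted p of 0.0314 with no block and 0.0154 with the code block. It was -0.83 in X, -0.80 in Y and -1.33 in Z, and without the Z libraries it was -0.82 (limma adjusted p 0.00388).

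Without a block, this call on Sqstm1 was lost when single libraries were left out: the limma adjusted p was 0.125 without standard replicate 1, 0.136 without standard replicate 3, 0.12 without chronic replicate 1 and 0.146 without chronic replicate 2. Chronic against acute hypoxia gave a log2 difference of -1.01 (SE 0.25), with a limma adjusted p of 0.107 with no block, 0.0369 with the code block and 0.00891 without the Z libraries, where the difference was -0.68. Acute hypoxia against standard oxygen gave 0.02 (limma adjusted p 1 without a block and 0.954 with it). The acute values lay below standard oxygen in codes X (-0.14) and Y (-0.13) and above it in code Z (0.33).

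Of a list of 6 markers of neutrophils and granulocyte precursors, S100a8 moved in the same direction as Sqstm1 and set the summed level of the list. The sums were 895 to 1595 TPM under standard oxygen, 937 to 1908 TPM under acute and 260 to 584 TPM under chronic hypoxia. Nearly all of each sum was S100a8 (258 to 1906 TPM), which was highest in the Z library of every group. Only 2 of the 6 markers had a mean of at least 1 TPM, and the other, Camp, did not fall in chronic hypoxia. Camp was at 0.712, 1.65 and 0.133 TPM in standard oxygen and at 0.143, 0.548 and 1.44 TPM under acute hypoxia. In chronic hypoxia it was at 1.86, 1.55 and 2.03 TPM. S100a9 was listed at 0 in 8 of 9 libraries, and Ly6g, Elane and Mpo were at most 0.765, 0.245 and 0.0935 TPM. Whether such cells were present, and whether they had any part in the Sqstm1 result, was not tested.

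Ulk1 (ENSMUSG00000029512, chr5:110784488-110810097, minus strand), the kinase that starts autophagy, was the least abundant member. It held 14.1, 15.5 and 16.6 TPM in standard oxygen, 12.6, 13.0 and 15.8 TPM under acute hypoxia, and 16, 17.4 and 19.2 TPM in chronic hypoxia. The chronic libraries lay just above all 3 acute libraries and overlapped standard oxygen. Chronic against acute hypoxia gave a log2 difference of 0.33 (SE 0.13), with a limma adjusted p of 0.227 with no block and 0.0638 with the code block, and the difference was 0.32 in X, 0.39 in Y and 0.27 in Z. With all 9 libraries in 1 fit and the code block, its limma adjusted p was 0.0399. Median-of-ratios rescaling brought the difference down to 0.18 (limma adjusted p 0.397 with no block and 0.232 with the code block). Against standard oxygen the log2 differences were -0.15 in acute hypoxia and 0.18 in chronic hypoxia, and neither passed the test (limma adjusted p 0.976 and 0.426 without a block).

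Becn1 (Beclin 1; ENSMUSG00000035086, chr11:101285952-101302286, minus strand), a subunit of the lipid kinase complex that marks the site of membrane growth, held 70.1, 76.3 and 86.4 TPM in standard oxygen. It held 79.6, 106 and 75.7 TPM under acute hypoxia, and 85.7, 110 and 81.3 TPM in chronic hypoxia. The groups overlapped, and code Y gave the highest library in each. The chronic log2 difference was 0.24 (SE 0.15), with a limma adjusted p of 0.377 with no block and 0.0936 with the code block; with the block and without the Z libraries it was 0.32, with a limma adjusted p of 0.00965. After median-of-ratios rescaling of all libraries the chronic difference was 0.06 (limma adjusted p 0.877 with no block and 0.611 with the code block). The acute log2 difference was 0.15 (limma adjusted p 0.997 and 0.462).

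Across the 10 genes, few calls were made without a block. In acute hypoxia against standard oxygen, limma called 0 of 10 members, beside 0.0273% of all genes tested; 2 members had an unadjusted p under 0.05, as did 7.14% of all genes. With the code block it called 1, Bnip3 (higher), beside 0.710% in either direction and 0.655% higher. In chronic hypoxia against standard oxygen it called 2 of 10, beside 2.69% of all genes: Bnip3 was higher, as were 2.10% of genes, and Sqstm1 lower, as were 0.596%. With the code block it called 3, where Pink1 was added to the higher side, beside 18.4% (15.1% higher, 3.30% lower). In chronic against acute hypoxia it called 0, beside 0.695%, and 3 members had an unadjusted p under 0.05, as did 20.8% of all genes. With the code block it called 2, Pink1 higher and Sqstm1 lower, beside 15.5% (12.1% higher, 3.42% lower). The 2 comparisons with standard oxygen share its 3 libraries, and the chronic and acute libraries are likewise each used in 2 comparisons.

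The members' groups did not overlap in 2 of 10 genes in acute hypoxia, both higher (Bnip3 and Bnip3l), beside 12.5% of all genes in either direction and 7.63% higher. In chronic hypoxia against standard oxygen they did not overlap in 4 genes, Bnip3 and Bnip3l higher and Sqstm1 and Gabarapl1 lower, beside 29.6% (24.2% higher, 5.39% lower). In chronic against acute hypoxia this held for 2 genes, Ulk1 higher and Sqstm1 lower, beside 27.8% (22.3% higher, 5.50% lower). Within the 3 pairs of the same code, 3 members were higher and 1 lower in every acute pair, beside 20.9% and 16.9% of all genes. In chronic hypoxia 6 were higher and 2 lower in every pair against standard oxygen, beside 46.9% and 12.6%, and 3 were higher and 1 lower against acute hypoxia, beside 43.5% and 12.9%. Such counts lie near the background and show nothing particular to the 10 genes. The median log2 difference of the members was 0.07 in acute hypoxia, 0.21 in chronic hypoxia and 0.06 in chronic against acute hypoxia, beside 0.01, 0.16 and 0.14 for all genes tested. Median-of-ratios rescaling moved the median of all genes to -0.001 in both chronic comparisons, and the members' medians to 0.04 for chronic against standard oxygen and -0.09 for chronic against acute hypoxia. Against standard oxygen, the rescaled chronic differences were 2.55 for Bnip3, -1.17 for Sqstm1, -0.44 for Gabarapl1 and 0.40 for Pink1, and those of the other 6 members lay between -0.12 and 0.17.

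**Figure D3:**
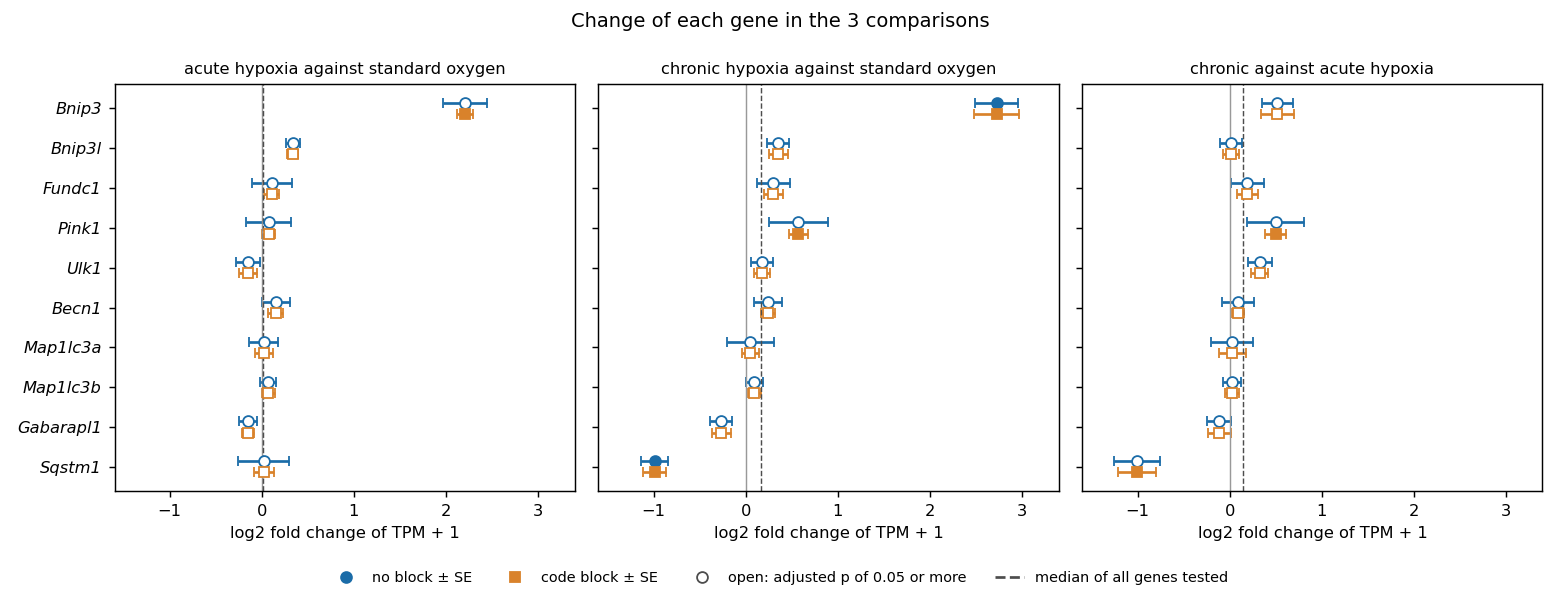
Log2 difference of each of the 10 genes on log2(TPM + 1) (horizontal axes) in the 3 comparisons, with bars of ± 1 SE from limma, without a block and with the code block; open symbols have an adjusted p of 0.05 or more, and the dashed line is the median of all genes tested. Bnip3 at 2.21 and 2.73 stands far to the right against standard oxygen and Sqstm1 at -0.99 and -1.01 to the left in the chronic comparisons, and the other members lie between these.

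The make-up of the 10 transcripts changed more than their sum. Their summed level was 1161, 1442 and 1226 TPM in standard oxygen, 1386, 1452 and 2019 TPM under acute hypoxia, and 1420, 1522 and 1236 TPM in chronic hypoxia, and the groups overlapped. Bnip3 made up 4.99% to 7.09% of that sum in standard oxygen, 20.6% to 21.7% in acute hypoxia and 33.3% to 37.2% in chronic hypoxia. Sqstm1 made up 53.5% to 60.4%, 40.9% to 54.3% and 24.7% to 28%. Sqstm1 stood at 8.51 to 10.8 times Bnip3 in standard oxygen, at 1.88 to 2.63 times in acute hypoxia, and at 0.662 to 0.842 times in chronic hypoxia, and the ratios of the groups did not overlap.

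A list of 73 other autophagy and mitophagy genes was read in the same fits, and 72 were tested, since Prkaa2 was below the filter. Without a block limma called 0 in each comparison, with 6, 10 and 8 genes at an unadjusted p under 0.05 in acute, chronic and chronic against acute hypoxia. These were 8.33%, 13.9% and 11.1% of the list, beside 7.14%, 22.9% and 20.8% of all genes. With the code block it called 0 in acute hypoxia, where 11 (15.3%) had an unadjusted p under 0.05, beside 14.2% of all genes. In chronic hypoxia against standard oxygen it called 7, of which 4 were higher and 3 lower, and in chronic against acute hypoxia it called 8, of which 6 were higher and 2 lower. These were 9.72% and 11.1% of the list, below the 18.4% and 15.5% of all genes. With rescaling as well, the calls were 6 (0 higher, 6 lower) and 5 (2 higher, 3 lower), or 8.33% and 6.94%. Over all genes the share of higher calls also fell in those fits, but to a near-even balance. There, 11.5% were called (619 higher, 652 lower) and 9.61% were called (506 higher, 555 lower). The list, in contrast, kept no higher call in chronic hypoxia against standard oxygen. The list's median log2 difference was -0.01, 0.10 and 0.07, beside 0.01, 0.16 and 0.14 for all genes.

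In chronic hypoxia against standard oxygen, the highest of the called genes were Ulk2, Fkbp8 and Atg16l1. Ulk2, the relative of Ulk1 in the same kinase complex, had 13.4 ± 1.76 TPM against 19.1 ± 4.39 TPM (SD, n = 3 each), a log2 difference of 0.46 (limma adjusted p 0.225 without a block, 0.0371 with the code block, 0.111 with block and rescaling). Fkbp8, an outer-membrane mitophagy receptor, went from 197 ± 8.61 to 272 ± 23.8 TPM, also 0.46 (limma adjusted p 0.0718, 0.0177 and 0.0525). Atg16l1, which directs the lipid attachment of ATG8 proteins, went from 17.9 ± 0.385 to 24.4 ± 1.65 TPM, 0.42 (limma adjusted p 0.0806, 0.0304 and 0.114). All 3 gains were thus called with the code block on the deposited scale and not after rescaling.

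The lowest were Optn, Plekhm1 and Gabarapl2, and these calls held with block and rescaling. Optn (optineurin, a ubiquitin-binding receptor of the Pink1 route) went from 6.16 ± 2.12 to 3.86 ± 1.79 TPM, a log2 difference of -0.59 (limma adjusted p 0.396 without a block, 0.038 with the code block, 0.0289 with block and rescaling). Plekhm1, an adaptor for fusion of autophagosomes with lysosomes, went from 64 ± 9.40 to 45.8 ± 3.54 TPM, -0.47 (limma adjusted p 0.114, 0.0226 and 0.0167). Its acute mean was similar, 43.6 ± 2.59 TPM, with a log2 difference of -0.53 from standard oxygen that did not pass the test (limma adjusted p 0.0816 with the code block).

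Gabarapl2, of the same ATG8 branch as Gabarapl1, held 105, 95.7 and 103 TPM in standard oxygen, 104, 93.8 and 100.2 TPM under acute hypoxia, and 80.8, 80.1 and 74.8 TPM in chronic hypoxia. Its chronic libraries lay below all 6 others. The log2 difference was -0.36 against standard oxygen (limma adjusted p 0.0916 without a block, 0.0247 with the code block, 0.0158 with block and rescaling) and -0.34 against acute hypoxia (limma adjusted p 0.125, 0.0418 and 0.0233).

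In chronic against acute hypoxia, the highest called genes were Mitf, Ulk2 and Tfeb, where Mitf and Tfeb encode related transcription factors known to drive lysosomal and autophagy genes. Mitf held 22.4, 14.5 and 21.7 TPM in standard oxygen, 15.1, 13.0 and 10.7 TPM under acute hypoxia, and 25.2, 28.3 and 19.4 TPM in chronic hypoxia. Tfeb held 21.2, 20.5 and 22.9 TPM, then 13.5, 15.1 and 17.5 TPM, then 22.0, 21.2 and 25.8 TPM. Both were lower in all 3 acute libraries than in all 3 chronic libraries. For Mitf the log2 difference was 0.86 (limma adjusted p 0.0809 without a block, 0.0136 with the code block, 0.0228 with block and rescaling). Tfeb gave 0.55 (limma adjusted p 0.103, 0.0216 and 0.0566) and Ulk2 0.56 (0.261, 0.0213 and 0.048). The acute differences from standard oxygen, -0.55 for Mitf and -0.46 for Tfeb, did not pass the test (limma adjusted p 0.103 and 0.181 with the code block). The called genes that were lower in chronic than in acute hypoxia were Gabarapl2 and Bcl2l13, an outer-membrane mitophagy receptor, at -0.36 (limma adjusted p 0.247 without a block, 0.0458 with the code block).

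**Figure D4:**
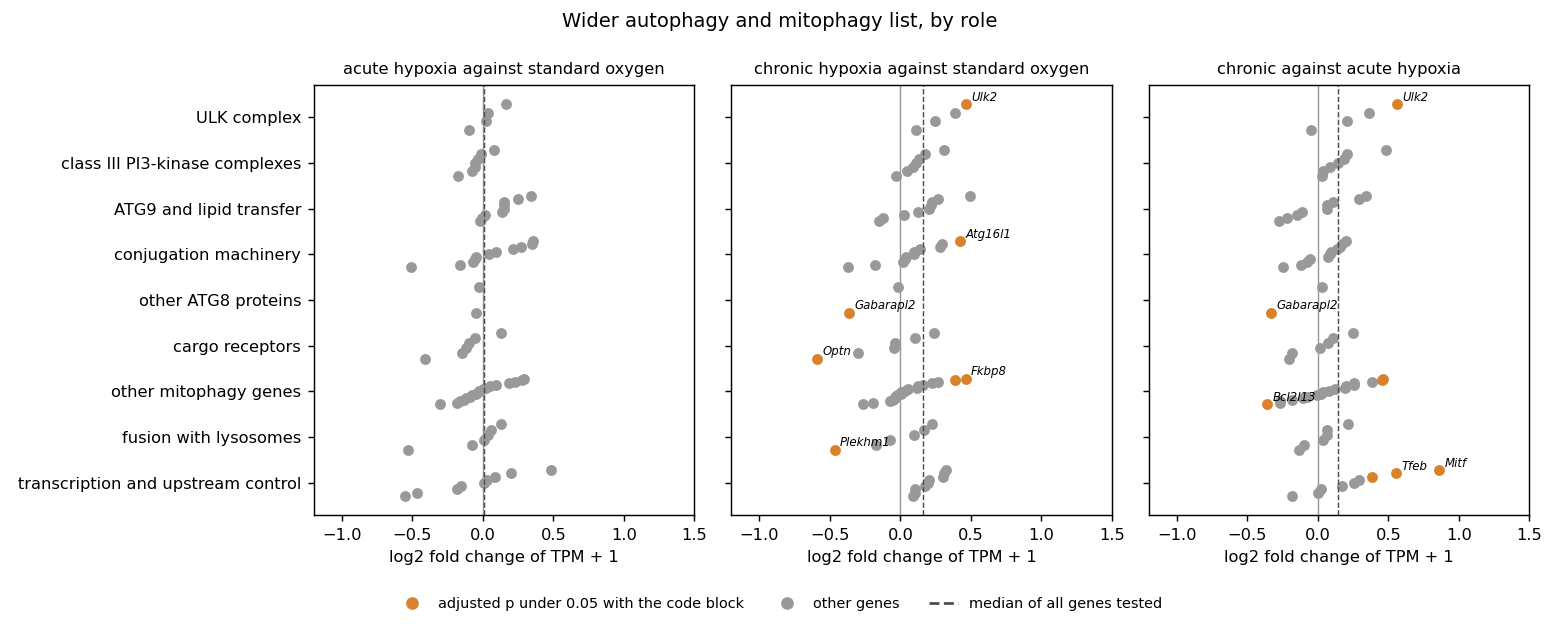
Log2 difference on log2(TPM + 1) (horizontal axes) of the 72 other autophagy and mitophagy genes tested, grouped by role along the vertical axis, in the 3 comparisons; each point is a gene, orange points have a limma adjusted p under 0.05 with the code block, and the dashed line is the median of all genes tested. No point is orange in acute hypoxia, 7 are in chronic hypoxia against standard oxygen and 8 in chronic against acute hypoxia, to the right and left of 0.

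The genes whose pattern over the 9 libraries was most like that of Bnip3 were found by the root mean square difference between centred log2(TPM + 1) profiles, among 7107 genes with a mean of at least 10 TPM. Ankrd37, an ankyrin repeat gene, was nearest at 0.164, with mean levels of 22.0, 113 and 153 TPM in standard oxygen, acute hypoxia and chronic hypoxia. The next were Prelid2 (0.441), Slc16a3 (0.449), Ppp1r3b (0.462) and Rgs11 (0.466). Slc16a3, the lactate exporter MCT4, had means of 138, 433 and 459 TPM. For Bnip3l the nearest were Mef2d (0.0791), Jdp2 (0.0803), Hivep3 (0.0848), Rnf6 (0.0869) and Lrp6 (0.0894). The member nearest to Bnip3 was Bnip3l, at 1.05. The 5 genes were picked as the nearest of all, members included, so every member outside them is farther by construction. The profiles were not scaled, so a gene with a small change lies far from Bnip3 whatever the shape of its pattern. All of these profiles come from the same 9 libraries.

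Several members share sequence or exons with other genes, and whether reads were counted by strand is not given in the sources used here. Of all stretches of 75 bases in the longest annotated transcript, 15.3% in Bnip3, 18.7% in Bnip3l and 5.81% in Map1lc3b also occur in other genes; the gene sharing most is listed at no more than 0.217 TPM for Bnip3 (Gm16439), 0.602 TPM for Bnip3l (Bnip3l-ps) and 0 for Map1lc3b (Gm6055). On the opposite strand, 17.3% of Sqstm1 exon bases overlap Mrnip (at most 2.77 TPM) and 43.9% of Becn1 exon bases overlap Cntd1 (at most 0.242 TPM). Transcripts of the opposite strand also overlap 22.3% of Bnip3 and 28.3% of Gabarapl1 exon bases. They are not among the genes listed, so no level was available for them. Values of these genes are uncertain to the extent that reads were split between such copies or partners.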

How the data were processed

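The authors deposited 3 tables of TPM, 1 for each pair of groups, with 34866 Ensembl genes and 6 sample columns each. All 9 samples appear in 2 tables with identical values, and every column sums to 1000000. Per the submitters' processing notes, FastQC, STAR and featureCounts were used with the build GRCm38; their versions, their roles and the step from counts to TPM are not given in the sources used here. TPM keeps no depth, so no count test or counting interval was possible. Per the labels' protocols, libraries were Illumina TruSeq mRNA, read as paired ends of 75 bases.

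Symbols came from a table matched on 34582 identifiers, and gene positions from GENCODE M21. For each pair of groups, limma 3.58.1 in R 4.3.3 was fitted to log2(TPM + 1) of the 6 samples, over genes with a mean of at least 1 TPM, with a variance trend, and two-sided p-values were adjusted by Benjamini-Hochberg. The script was tested on simulated data with independent noise in each library. That simulation held no effect shared by libraries of the same code, so it cannot judge the code block on these data. Deviations of same-code samples from their group means correlated with r of 0.378 to 0.539 against standard oxygen and 0.399 to 0.633 between hypoxic groups (11065 genes). Title numbers 2 and 3, which match a Z library with a Y library, gave -0.515 to -0.282 against standard oxygen. Each group was centred on its own mean, so X and Y libraries can correlate through an outlying Z library alone. X was not compared with Y across groups. These values show that the Z libraries go together and cannot settle how X and Y pair. The codes used as a block come from the labels, and the fit without a block stayed the main one. All 10 members are named. Of the wider list, the 3 highest and 3 lowest called genes per comparison are named, and 5 genes each most like Bnip3 and Bnip3l. The members and lists were chosen with earlier results of these data known. Promoters are from RefSeq; alternatives are listed after the results.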

Additional observations from a re-analysis of the deposited data

How the results depend on the processing

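The precision is limited by 3 libraries a group, and depth is unknown. Limma calls among the 10 members in acute hypoxia went from 0 to 1 (Bnip3) with median-of-ratios rescaling, all 9 samples in 1 fit, the code replicate block, or the Z libraries left out, alone or combined; leaving out single replicates gave 0 to 1. In chronic hypoxia the 2 calls became 1 without a filter, 0 with the title replicate block, 5 with the code block without the Z libraries and 4 with the code block over all 9 samples; leaving out single replicates gave 0 to 2. In chronic against acute hypoxia the 0 calls became 2 with the replicate block (title and code give the same pairs), 1 with the code block and rescaling, and 3 without the Z libraries, with or without the block, and with the code block over all 9 samples; leaving out single replicates gave 0. The wider list went from 0 to 1 (code block without Z) and 3 (code block, all 9 samples) in acute hypoxia. These were 1.39% and 4.17% of the list, beside 3.02% and 1.84% of all genes in the same fits. In chronic hypoxia it went from 0 to 2 (all 9 samples), 7 (code block), 6 (code block and rescaling), 8 (without Z), 21 (code block without Z) and 11 (code block, all 9 samples); leaving out single replicates gave 0 to 1. In chronic against acute hypoxia it went to 2, 8, 5, 10, 18 and 9 in the same order, and leaving out single replicates gave 0 to 1. In the fits with the code block, all genes were called at 35% in chronic and 25.1% in chronic against acute hypoxia without the Z libraries, and at 26.3% and 22.1% over all 9 samples; the wider list was called at 29.2%, 25.4%, 15.3% and 12.5%. Over all genes, the code replicate block moved the calls from 3 to 78, from 298 to 2039 and from 77 to 1724, and the title block moved the first pair of counts to 0 and 1. All 9 samples in 1 fit gave 25, 764 and 415, leaving out the Z libraries gave 319, 2300 and 1788, and no filter gave 4, 120 and 7. Leaving out single replicates gave 0 to 33 in acute and 1 to 522 in chronic hypoxia. In chronic against acute hypoxia it gave 1 to 4 when the library left out was of code X or Y, and at least 90 when it was of code Z. Rescaling gave 21 calls in place of 3, 115 higher and 117 lower in place of 232 and 66 in chronic hypoxia, and 33 and 50 in place of 61 and 16 in chronic against acute hypoxia. With the code block it gave 619 and 652 in place of 1674 and 365, and 506 and 555 in place of 1345 and 379. The combinations of the code block with the Z libraries left out or with all 9 samples were chosen after seeing the data.

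Signs turned for values near 0, none of them called. With rescaling, with or without the block, acute values became -0.0002 (Map1lc3a) and -0.0014 (Sqstm1), chronic values -0.122 (Map1lc3a) and -0.0829 (Map1lc3b), and chronic against acute values -0.141 (Bnip3l), -0.122 (Map1lc3a), -0.132 (Map1lc3b) and -0.0664 (Becn1). Without the Z libraries they became -0.0812 (Map1lc3a, acute), -0.134 (Sqstm1, acute) and 0.0348 (Gabarapl1, chronic against acute). Leaving out single replicates gave acute ranges of -0.0709 to 0.25 (Fundc1), -0.12 to 0.26 (Pink1), -0.13 to 0.14 (Map1lc3a) and -0.28 to 0.19 (Sqstm1), a chronic range of -0.11 to 0.31 (Map1lc3a), and chronic against acute ranges of -0.093 to 0.0793 (Bnip3l), -0.13 to 0.29 (Map1lc3a), -0.012 to 0.0834 (Map1lc3b) and -0.0424 to 0.236 (Becn1). The cause of these changes was not tested.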
